A study of Mus musculus with 24 samples.

Results

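SR proteins and heterogeneous nuclear ribonucleoproteins (hnRNPs) are the 2 large families of RNA-binding proteins that steer splice site choice. Their genes were taken by symbol from the mRNA table, as Srsf or Hnrnp followed by the family suffix. This gave 31 of 36096 genes, 11 Srsf and 20 Hnrnp, with 282 of the table's 119414 transcripts. SR proteins carry a domain rich in arginine and serine, bind exonic enhancers and mostly promote exon inclusion. hnRNPs coat nascent RNA, often bind exonic or intronic silencers, and also act in mRNA export, transport, stability and translation. Many genes of both families hold alternative exons or introns that expose their own transcripts to nonsense-mediated decay, which is one way the proteins limit their own levels. In cortex, the balance among these factors and neuronal regulators such as Nova, Rbfox and Celf proteins shapes the splicing of synaptic genes.

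RNA came from the medial frontal cortex of C57BL/6J mice at postnatal day 28, in ribosomal RNA-depleted libraries. The mice of the Dnmt3l groups (genotype Dnmt3l;Emx1-cre) came from a cross between conditional Dnmt3l knock-in and Emx1-cre animals, and the control groups carried Emx1-cre. All 12 samples therefore came from Emx1-cre breeding, and the Emx1-driven recombinase acts in excitatory neurons and glia of the dorsal forebrain, not in every cortical cell. The 3 Dnmt3l male libraries are written DM1 to DM3, the 3 Dnmt3l female libraries DF1 to DF3, the 3 control male libraries CM1 to CM3 and the 3 control female libraries CF1 to CF3. The labels number the samples without saying whether each is a separate animal, so p-values measure the spread between samples, which may be partly technical.

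Library totals in the mRNA table were 22144970 to 26842726 expected counts in Dnmt3l and 27074837 to 32100277 in controls. Expected counts are estimates in which a read that matches several transcripts is divided among them. Dnmt3l itself had 521 to 1179 counts in the 6 Dnmt3l libraries, highest in DF1, and 0 to 3 in the 6 controls. A group of 4 libraries stood apart. DF1 showed little of the change seen in the other 5 Dnmt3l libraries. CM3, CF1 and CF2 held liver transcripts, 90.6 to 113 CPM over the liver list without Ttr (which choroid plexus also makes), against at most 2.59 CPM in every other library. Mitochondrial genes took 3.71% to 7.26% of counts in Dnmt3l, lowest in DF1, and 2.62% to 3.57% in controls. The defining markers of cortex were present in all libraries, with summed levels of 10 excitatory neuron markers at 6107 to 7291 CPM in Dnmt3l and 4714 to 5664 CPM in controls. Camk2a made up most of these sums, at 4043 to 4949 CPM in Dnmt3l and 2925 to 3526 CPM in controls. The sums therefore do not stand for the 10 markers as a set, of which 4 were lower and 2 higher (median log2 change −0.33).

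Promoters of 4 members with called changes are shown with their CpG dinucleotides, the substrate of the DNA methyltransferases that DNMT3L assists. Methylation was not measured in these data, and no relation between promoter sequence and the members' changes was tested. RefSeq entries on GRCm38.p6 matched 29 of the 31 members with 41 promoters, and the 250 bases before each start site were read. Below are 3 genes that were lower in Dnmt3l and 1 that was higher, on the minus strand of the chromosome in each case, written 5′ to 3′ with every CpG in capitals.
Hnrnpab, chr11:51606882-51607131: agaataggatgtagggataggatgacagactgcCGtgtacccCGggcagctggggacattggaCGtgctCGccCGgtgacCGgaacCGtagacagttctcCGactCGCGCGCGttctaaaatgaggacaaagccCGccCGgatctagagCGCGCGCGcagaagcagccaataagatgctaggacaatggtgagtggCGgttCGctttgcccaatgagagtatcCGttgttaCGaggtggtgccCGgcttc
Hnrnpd, chr5:99978939-99979188: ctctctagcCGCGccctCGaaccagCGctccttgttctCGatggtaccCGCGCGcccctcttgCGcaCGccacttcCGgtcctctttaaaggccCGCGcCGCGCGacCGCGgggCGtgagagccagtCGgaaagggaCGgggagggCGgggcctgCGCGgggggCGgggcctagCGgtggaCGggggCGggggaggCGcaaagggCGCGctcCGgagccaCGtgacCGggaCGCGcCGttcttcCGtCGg
Hnrnpk, chr13:58402118-58402367: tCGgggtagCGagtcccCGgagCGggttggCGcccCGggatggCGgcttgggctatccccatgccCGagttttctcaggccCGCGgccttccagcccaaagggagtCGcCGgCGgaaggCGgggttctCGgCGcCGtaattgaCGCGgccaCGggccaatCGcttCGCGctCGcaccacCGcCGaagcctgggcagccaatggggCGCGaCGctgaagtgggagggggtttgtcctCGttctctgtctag
Srsf11, chr3:158036607-158036856: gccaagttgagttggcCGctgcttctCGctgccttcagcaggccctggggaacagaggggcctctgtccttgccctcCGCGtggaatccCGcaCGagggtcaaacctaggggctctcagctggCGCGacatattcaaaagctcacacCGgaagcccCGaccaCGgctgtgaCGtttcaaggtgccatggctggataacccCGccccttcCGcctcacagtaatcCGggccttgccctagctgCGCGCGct
The Hnrnpd stretch held 39 CpGs, the Hnrnpk stretch 30, the Hnrnpab stretch 23 and the Srsf11 stretch 18, while the second Srsf11 promoter, not shown, held 16. These 4 do not stand for an order by direction. Promoters of genes that were lower ranged from 6 CpGs, in 1 of those of Hnrnpf, to 46 in Hnrnpa0, with 10 in Hnrnph2, 11 in Hnrnpa1 and 17 in Hnrnpc, and among genes that were higher Hnrnpm had 19 and Srsf5 had 17. Over all 41 member promoters the median was 23 CpGs and 68.0% GC, beside 6 CpGs and 52.4% GC over 32851 RefSeq promoters of the same length. The GC box letters GGGCGG were found on either strand in 80.5% of member promoters and 32.7% of all promoters, and CCAAT in 48.8% and 33.9%. The ETS letters CCGGAAG were in 22.0% and 6.91%, the letters TATAAA in 7.32% and 12.4%, AAGATGG (YY1) in 2.44% and 4.49%, the NRF1 motif in 2.44% and 0.782%, and TGACGTCA (CRE) in 0% and 1.55%. The GC box, ETS, NRF1 and CRE letters each contain a CpG, so these counts overlap with the CpG counts. Some of the 41 stretches overlap, such as those of Srsf4 that start at 131873387 and 131873389, and each was counted. The 32851 promoters belong to 27025 genes and were not limited to genes expressed here, while all members were expressed. The matches describe the letters only.

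Averaged over sexes, 12 of the 31 genes were lower in Dnmt3l cortex and 3 were higher at an edgeR adjusted p below 0.05, and the other 16 did not pass. All 31 had passed the filter on low values. The called share of 48.4% lay near the background of 51.5% of 15786 genes, with 38.7% of members lower beside 26.4% of all genes and 9.68% higher beside 25.2%. Of 20 Hnrnp genes, 10 were lower and 1 was higher (median log2 change −0.14), and of 11 Srsf genes 2 were lower and 2 higher (median −0.02), and the difference between the families was not tested. The median was −0.05 over all 31 members and 0.02 over all tested genes. All 31 genes together took 0.266% to 0.338% of a library's counts in Dnmt3l and 0.334% to 0.346% in controls, and the 0.338% was DF1.

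**Figure D1:**
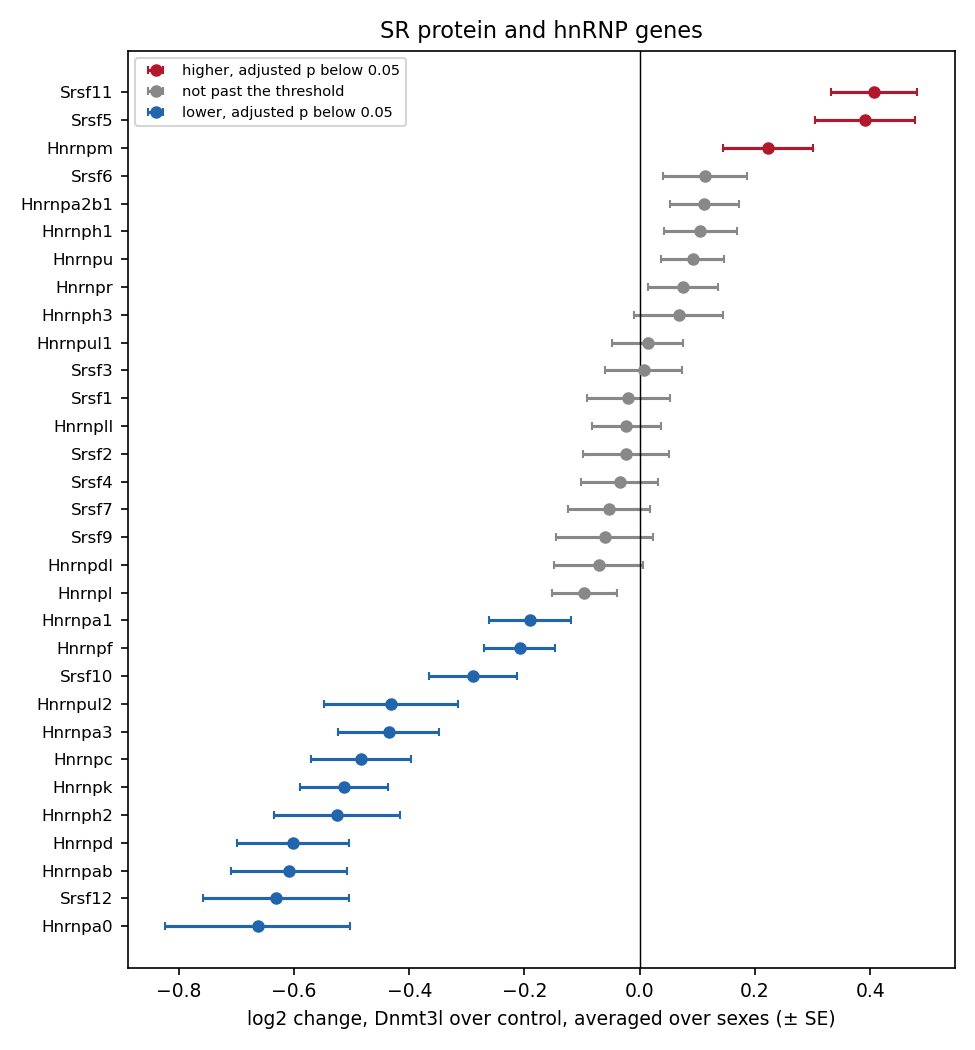
Log2 change of each member gene, Dnmt3l over control, averaged over sexes (points, edgeR estimate; bars, SE; 6 libraries per genotype). The 12 genes lie to the left with an adjusted p below 0.05, from Hnrnpa1 at −0.19 to Hnrnpa0 at −0.66, and 3 lie to the right, up to Srsf11 at 0.41.

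Of the 4 largest falls, 3 were in Hnrnpa0, Hnrnpab and Hnrnpd, related hnRNPs that act in mRNA stability and transport, and the other was in the SR gene Srsf12. Hnrnpa0, an AU-rich element binder made from a single-transcript gene (ENSMUSG00000007836, chromosome 13, 58125879 to 58128556, GRCm38), had 17.6, 12.8, 22.4, 30.8, 15.6 and 18.4 CPM in DM1 to DM3 and DF1 to DF3. The controls had 29.2, 34.2, 28.5, 30.7, 30.0 and 32.8 CPM. The other 5 Dnmt3l libraries lay below all controls, while DF1 lay within the control range. The log2 change was −0.66 ± 0.16 (SE, edgeR adjusted p = 0.00429).

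Hnrnpab, known for carrying mRNAs in neuronal processes (ENSMUSG00000020358, chromosome 11, 51600100 to 51606847), had 39.4, 44.2 and 44.6 CPM in Dnmt3l males and 69.9, 44.2 and 46.6 CPM in Dnmt3l females. Control males had 73.8, 70.4 and 71.9 CPM and control females 72.5, 70.9 and 78.1 CPM. Every Dnmt3l library was below every control, although DF1 missed the lowest control by less than 1 CPM. The change was −0.61 ± 0.10 (SE, edgeR adjusted p = 0.000558).

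Hnrnpd, also called AUF1, binds AU-rich elements and is best known for directing mRNA decay (ENSMUSG00000000568, chromosome 5, 99955935 to 99978938). Its levels were 82.7, 83.9, 79.2, 126.7, 88.9 and 78.6 CPM in DM1 to DM3 and DF1 to DF3, against 137.7, 122.3, 130.2, 142.6, 142.7 and 141.9 CPM in CM1 to CM3 and CF1 to CF3. DF1 was again the highest Dnmt3l library and the only one to reach the control range. The change was −0.60 ± 0.10 (SE, edgeR adjusted p = 0.000499). Its close relative Hnrnpdl, nearby on the same chromosome (chromosome 5, 100033577 to 100039664) was at 102 to 137 CPM in Dnmt3l and 113 to 132 CPM in controls and did not pass (−0.07 ± 0.08, edgeR adjusted p = 0.459).

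Hnrnpk, whose KH domains bind C-rich RNA (ENSMUSG00000021546, chromosome 13, 58391142 to 58403343), was the second most abundant member by length-corrected level, with 143 ± 16 FPKM in Dnmt3l and 188 ± 15.6 FPKM in controls (SD, n = 6 each). On the CPM scale it had 141, 154 and 153 in Dnmt3l males and 201, 149 and 151 in Dnmt3l females, against 229, 233 and 217.5 in control males and 224, 223 and 225 in control females. It was the other member with all 6 Dnmt3l libraries below all 6 controls (−0.51 ± 0.08 SE, edgeR adjusted p = 0.00037). Such separation downwards held for 2 members, beside 6.83% of all genes.

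Hnrnph2, an X-linked member of the H/F group that binds runs of G (chromosome X, 134601179 to 134607060), had 76.2, 71.4, 65.9, 119.7, 79.3 and 70.6 CPM in DM1 to DM3 and DF1 to DF3 and 98.7 to 125 CPM in controls. Only DF1 among the Dnmt3l libraries reached the control range (−0.52 ± 0.11 SE, edgeR adjusted p = 0.00182). The same group's Hnrnpf fell less, by 0.21 ± 0.06 (edgeR adjusted p = 0.0128, with 0.000197 to 0.035 with any 1 library left out). Without the 3 controls that held liver transcripts its change was −0.26 and the call was lost. That set leaves CF3 as the only control female, so a loss of calls there cannot be told apart from the loss of samples. Hnrnph1 and Hnrnph3 had changes of 0.11 ± 0.06 and 0.07 ± 0.08 and did not pass (edgeR adjusted p 0.174 and 0.481). Differences between these relatives were not tested.

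Among the remaining hnRNPs, Hnrnpc, which binds uridine tracts, fell by 0.48 ± 0.09, and Hnrnpa3 by 0.44 ± 0.09 (edgeR adjusted p 0.000811 and 0.00149). Hnrnpul2, a relative of the scaffold protein gene Hnrnpu, fell by 0.43 ± 0.12 (edgeR adjusted p = 0.00796). In each of these 3 genes DF1 lay among the controls, at 164, 187 and 197 CPM, and every other Dnmt3l library lay below the lowest control. Hnrnpa1, the classical repressor of exon inclusion, fell by 0.19 ± 0.07 (edgeR adjusted p = 0.0397), and its levels overlapped at 91.9 to 104 CPM in Dnmt3l and 99.1 to 124 CPM in controls. That call ended when any 1 of DM1, DM2, DM3, DF2, DF3, CM1, CF1 or CF2 was left out (edgeR adjusted p 0.00463 to 0.11 over single omissions). It also ended with upper-quartile scaling (edgeR adjusted p = 0.102) and without the 3 liver-bearing controls, where CF3 was the only control female. On log2 FPKM the changes were larger, −0.41 for Hnrnpa1 and −0.34 for Hnrnpf (limma adjusted p 0.00242 and 0.00195).

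**Figure D2:**
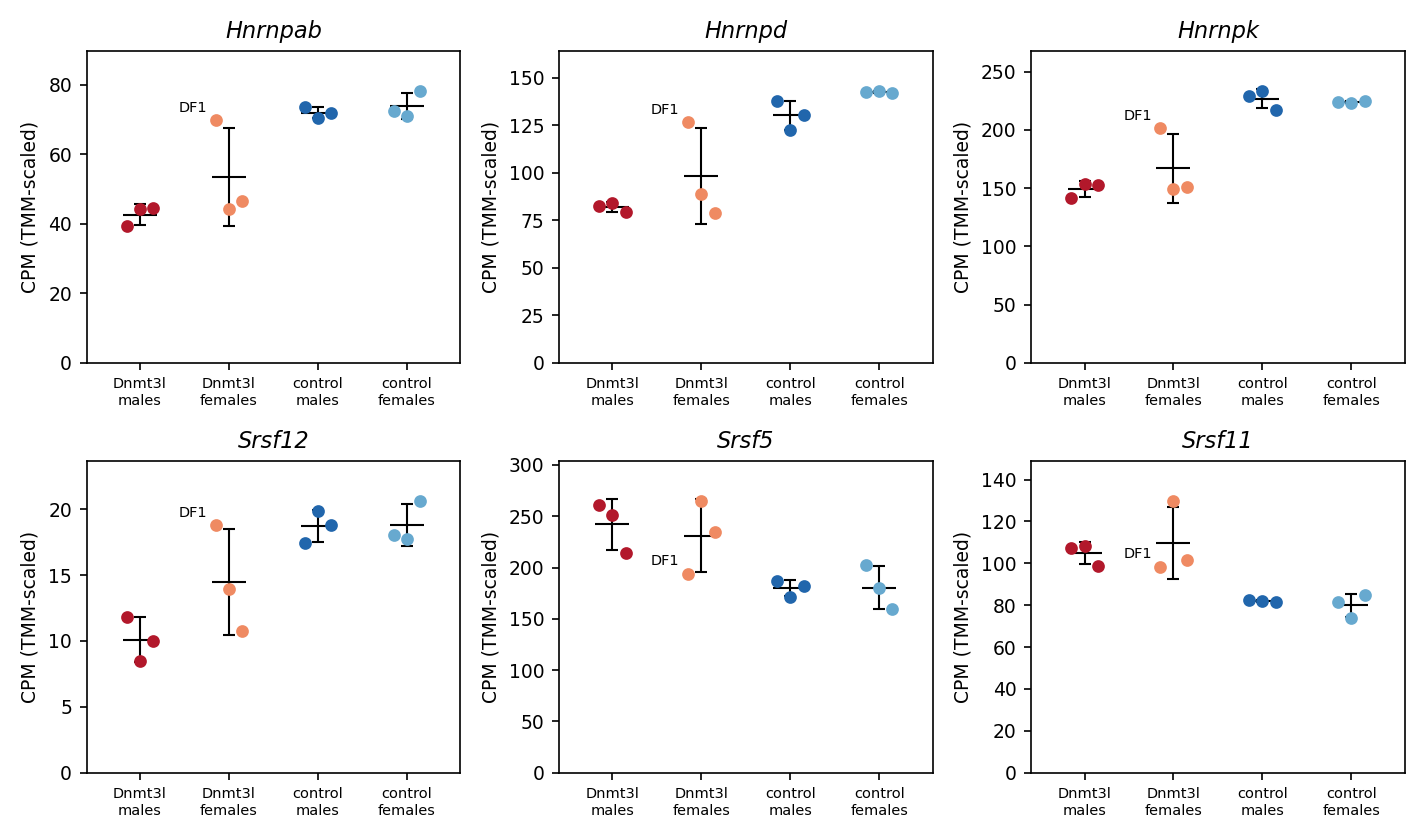
Levels of 6 members in the 12 libraries, as TMM-scaled CPM on axes that start at 0 (points, libraries; black bars, mean ± SD of 3). In the 4 panels of genes that were lower, DF1 lies at or near the controls (Hnrnpab 69.9, Hnrnpd 127, Hnrnpk 201 and Srsf12 18.8 CPM), and all 6 Dnmt3l libraries lie above the controls for Srsf11.

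The 2 SR genes that were lower encode the atypical members that can act as splicing repressors. Srsf12, a low-abundance relative that antagonises other SR proteins in vitro (ENSMUSG00000054679, chromosome 4, 33208991 to 33233340), had 11.8, 8.47 and 10.03 CPM in Dnmt3l males and 18.8, 13.95 and 10.7 CPM in Dnmt3l females. Controls had 17.45 to 20.6 CPM, and only DF1 overlapped them (−0.63 ± 0.13 SE, edgeR adjusted p = 0.00146). Srsf10, which becomes a repressor when dephosphorylated, had 42.3 to 64.3 CPM in Dnmt3l and 57.0 to 72.9 CPM in controls (−0.29 ± 0.08 SE, edgeR adjusted p = 0.00717). Its call ended with limma on log2 FPKM (−0.15, adjusted p = 0.108, against edgeR adjusted p of 0.0008 to 0.0218 with 1 library left out).

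Srsf11 rose the most. It encodes an SR protein known for promoting short neuronal exons (ENSMUSG00000055436, chromosome 3, 158010473 to 158036639). It had 107, 108.5 and 98.7 CPM in Dnmt3l males and 98.4, 130 and 101.5 CPM in Dnmt3l females, against 82.4, 81.8 and 81.5 CPM in control males and 81.3, 73.8 and 84.8 CPM in control females. It was the 1 member with every Dnmt3l library above every control, DF1 included, which held for 5.47% of all genes (0.41 ± 0.07 SE, edgeR adjusted p = 0.000919). The call passed with any 1 library left out (edgeR adjusted p 5.01e-05 to 0.00416). Without the 3 liver-bearing controls, with CF3 the only control female, the change was 0.34 and did not pass.

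Srsf5, an exon-enhancing SR protein and the third most abundant member at 161 ± 17.2 FPKM in Dnmt3l and 137 ± 12.1 FPKM in controls (SD, n = 6 each), also rose. Its CPM were 261, 251, 214, 194, 265 and 234 in DM1 to DM3 and DF1 to DF3, against 187, 171, 182, 202, 180 and 160 in CM1 to CM3 and CF1 to CF3. DF1 was the lowest Dnmt3l library and the only one to overlap the controls (0.39 ± 0.09 SE, edgeR adjusted p = 0.00267). With limma on log2 FPKM the change was 0.23 (adjusted p = 0.0574). Hnrnpm, which binds GU-rich RNA, had 72.5 to 94.6 CPM in Dnmt3l and 59.2 to 79.3 CPM in controls (0.22 ± 0.08 SE, edgeR adjusted p = 0.0294). Its call ended without any 1 of DM1, DM2, DF2, DF3, CM2, CF2 or CF3 (edgeR adjusted p 0.00684 to 0.106 over single omissions). It also ended with no filter on low values (edgeR adjusted p = 0.0505) and with limma on log2 FPKM (0.16, adjusted p = 0.308). The set without the 3 liver-bearing controls, with CF3 the only control female, did not keep the call either.

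The most abundant member did not pass. Hnrnpa2b1, a reader of trafficking signals in RNA (ENSMUSG00000004980, chromosome 6, 51460932 to 51469894), had 289 ± 36.5 FPKM in Dnmt3l and 291 ± 13.6 FPKM in controls (SD, n = 6 each; 0.11 ± 0.06 SE on counts, edgeR adjusted p = 0.128). Hnrnpl, which binds CA repeats, had 111.5 ± 5.75 and 119 ± 7.72 FPKM in Dnmt3l and controls (−0.10 ± 0.06 SE, edgeR adjusted p = 0.165). Both passed without DF1, Hnrnpa2b1 as higher and Hnrnpl as lower (edgeR adjusted p 0.0186 and 0.0388, with upper ends of 0.295 and 0.359 over single omissions). The founding SR protein gene Srsf1 was at −0.02 ± 0.07, Srsf2, a marker of nuclear speckles, at −0.02 ± 0.07, and the export adapters Srsf3 and Srsf7 at 0.01 ± 0.07 and −0.05 ± 0.07 (SE, edgeR adjusted p 0.837, 0.814, 0.941 and 0.557). The other uncalled members, Srsf4, Srsf6, Srsf9, Hnrnpll, Hnrnpr, Hnrnpu and Hnrnpul1, had log2 changes between −0.06 and 0.11.

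Among the genes called lower, DF1 stood apart from the other Dnmt3l libraries. Across the 12 lower genes, the median log2 ratio to the same-sex controls was −0.65, −0.56 and −0.56 in DM1 to DM3 and −0.53 and −0.60 in DF2 and DF3, and every one of the 12 genes was below 0 in these 5 libraries. In DF1 the median was −0.03 and 8 of 12 were below 0, although DF1 had the highest Dnmt3l level. The 12 genes were chosen as lower in these same libraries, so their signs there follow in part from that choice. Over all 31 members the medians were −0.11, −0.06 and −0.15 in DM1 to DM3 and 0.002, −0.02 and −0.11 in DF1 to DF3. With any 1 library left out, DF1 included, 11 to 13 members were lower and 2 to 4 higher.

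**Figure D3:**
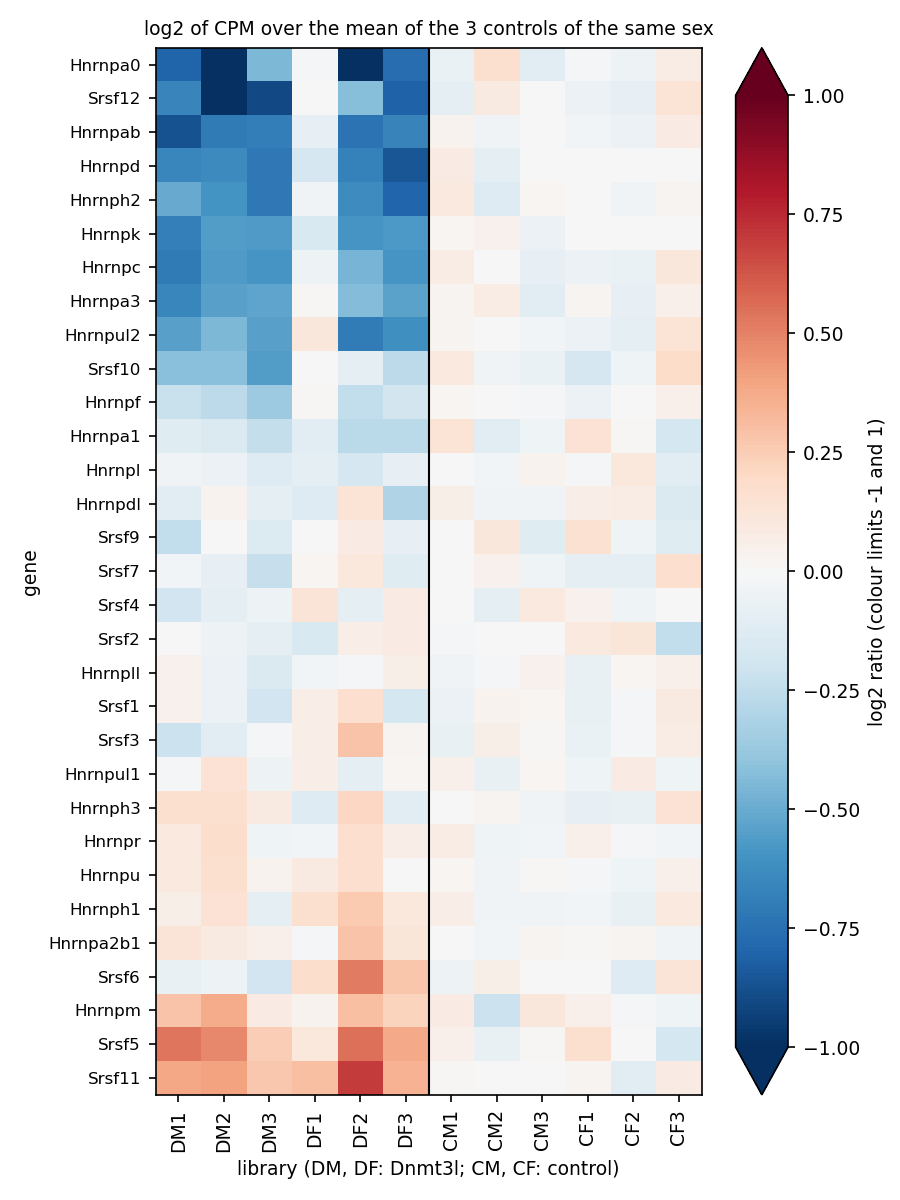
Log2 ratio of each member's CPM to the mean of the 3 controls of the same sex, in 12 libraries (columns, Dnmt3l on the left; rows, genes from the lowest to the highest change; colours limited to −1 and 1). The upper rows are blue in 5 of 6 Dnmt3l libraries and pale in DF1, where 8 of the 12 lower genes were below 0.

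By sex, 13 members were called in males, 11 lower and 2 higher, beside 43.1% of all genes (22.7% lower and 20.4% higher). In females 3 were called, 2 lower and 1 higher, beside 9.1% of all genes (4.38% lower and 4.73% higher). In males, Srsf12 fell by 0.89, Hnrnpa0 by 0.80 and Hnrnpab by 0.75 (edgeR adjusted p 0.00269, 0.0135 and 0.00211). In females, Hnrnpd fell by 0.54 and Hnrnpk by 0.42, and Srsf11 rose by 0.46 (edgeR adjusted p 0.0385, 0.0383 and 0.0341). The female count was 15 without DF1 (beside 7443 of all 15786 genes) and 1 without DM3 (beside 454 of all 15786 genes). It was 0 when any other single library was left out. The difference between the male and female changes, tested directly, passed for 0 members (0% of all genes, 2 members at an unadjusted p below 0.05, 0 members with DESeq2), so these counts do not show that the sexes differed. The 2 at an unadjusted p below 0.05 were Srsf6 (−0.43 ± 0.15 SE) and Srsf10 (−0.35 ± 0.15 SE), both with an edgeR adjusted p of 0.68. Between control females and control males 0 members were called by edgeR, and 0 had an unadjusted p below 0.05, with 0.0253% of all genes called.

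The cell type markers moved with the genotype in the same libraries. All 10 microglia markers and all 10 endothelial and pericyte markers were higher in Dnmt3l, as were 9 of 10 astrocyte markers (1 lower) and 7 of 10 of the oligodendrocyte lineage. The summed astrocyte level was 7626 to 14520 CPM in Dnmt3l, with 7626 in DF1, and 7044 to 7549 CPM in controls. The microglia sum was 327.5 to 647 CPM in Dnmt3l, again lowest in DF1, and 299 to 337.5 CPM in controls. The endothelial and pericyte sum was 384 to 767 CPM and 347 to 379.5 CPM, and the oligodendrocyte sum 3400 to 10770 CPM and 3493 to 6335 CPM, in Dnmt3l and controls. Of 10 excitatory neuron markers 4 were lower and 2 higher, with Neurod6 at −1.57 and Camk2a at 0.47, and of 10 interneuron markers 5 were lower and 4 higher (sums 807 to 1018 CPM in Dnmt3l and 890 to 981 CPM in controls). Liver transcripts were lower for 11 of 13 tested (0 higher, sums with Ttr 50.3 to 553 CPM in Dnmt3l and 178 to 324 CPM in controls). Without Ttr, the liver sum was 0.34 to 0.658 CPM in CM1, CM2 and CF3 and 0.738 to 2.59 CPM in Dnmt3l. Only CM3, CF1 and CF2 lay above the Dnmt3l libraries, at 90.6 to 113 CPM. Red blood cell transcripts were lower for 4 of 5 (0 higher, sums 72.2 to 218 CPM in Dnmt3l and 106 to 513 CPM in controls). None of the listed markers was at 0 in all libraries. The part of cell composition, of mitochondrial share and of the liver-bearing controls in the members' changes was not tested, and in bulk tissue fewer cells of a type and less RNA per cell cannot be told apart.

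Other splicing genes, in lists chosen with earlier results of these data known, were called in both directions. Their counts stand beside 26.4% of all genes lower and 25.2% higher, with a median of 0.02. Of 40 core spliceosome subunits, 24 were lower and 2 higher (median −0.28). Snrpd3, an Sm protein at the core of the small nuclear ribonucleoproteins, fell by 0.86 ± 0.13 to 26.6 to 51.1 CPM in Dnmt3l, against 52.7 to 69.9 CPM in controls (edgeR adjusted p = 0.000388), and Prpf40b, linked to the U1 particle, rose by 0.48 ± 0.08 (edgeR adjusted p = 0.000588). Of 23 other hnRNP-like proteins, 12 were lower and 1 higher (median −0.27), with Pcbp3, a poly(C) binder, at −0.81 ± 0.12 and Ptbp1, the repressor of neuronal exons, at 0.33 ± 0.09 (edgeR adjusted p 0.000361 and 0.00657). Of 22 neuronal splicing regulators, 12 were lower and 2 higher (median −0.26). Rbfox1 fell by 0.81 ± 0.14 to 131 to 260 CPM in Dnmt3l, against 245 to 312 CPM in controls, and Khdrbs2, which regulates neurexin splicing, rose by 0.41 ± 0.12 (edgeR adjusted p 0.000584 and 0.0117).

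Of 23 kinases and SR-like partners of the SR proteins, 12 were higher, 5 were lower and 6 did not pass (median 0.21), and the difference from the other lists was not tested. Of the SR protein kinases named Srpk, Srpk3 was higher and Srpk2 fell by 0.27 ± 0.08 (edgeR adjusted p = 0.0164). Srpk1 was at 0.09 ± 0.06 and did not pass (edgeR adjusted p = 0.227). The SR protein kinases Clk1, Clk2, Clk3 and Clk4 were all higher, by 0.33 ± 0.08, 0.51 ± 0.09, 0.21 ± 0.07 and 0.21 ± 0.08 (edgeR adjusted p 0.00492, 0.000745, 0.02 and 0.0439). Srpk1, Srpk2 and the Clk genes were added after their values were seen. Srpk3 had 4.04 to 9.28 CPM in Dnmt3l and 3.77 to 4.28 CPM in controls (0.73 ± 0.14 SE, edgeR adjusted p = 0.000994). Rnps1, an SR-like factor of the exon junction complex, fell by 0.38 ± 0.09 (edgeR adjusted p = 0.00425). Of 15 nonsense-mediated decay genes 5 were lower, 1 was higher and 9 did not pass (median −0.17), a called share below that of all genes. Magoh, a core protein of the exon junction complex, had 1.81 to 5.82 CPM in Dnmt3l and 5.14 to 7.78 CPM in controls (−1.07 ± 0.20 SE, edgeR adjusted p = 0.000991), and Smg1, the kinase that phosphorylates Upf1, was at 0.23 ± 0.07 (edgeR adjusted p = 0.0175). The summed level of the core spliceosome list was 2354 to 2460 CPM in 5 Dnmt3l libraries, 2937 CPM in DF1 and 2875 to 2928 CPM in controls.

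The share of each transcript within its gene was tested for 204 of the 282 member transcripts, in 30 of 31 genes. Shares are of counts, to which a long transcript contributes more than a short one, and the division of reads among transcripts is itself an estimate. With limma on the logit of the share 11 transcripts of 7 genes passed, 5.39% of those tested beside 3.89% of 49844 transcripts, and 70 had an unadjusted p below 0.05. The diffSpliceDGE test that the analysis design had named called 3 member transcripts, 1 of them in common with limma. It was replaced because most of its calls on simulated data were false, after the counts of both tests had been seen. Leaving out 1 library gave 34 calls without DF1 (beside 5308 of all 49844 tested transcripts) and 4 without CF1 (beside 826). It gave 2 without DM1 (beside 104) and 1 without any other (beside 46 to 126). With the replicate number as a block, 1 call was left (beside 24 of all 49844 tested transcripts). Apart from Hnrnpa2b1, the transcript results below therefore rest on the full set of libraries. The single omissions took limma adjusted p values for the 10 other transcripts to between 0.0044 and 0.106, with no change of sign.

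The 1 call that held in every alternative that tested it was in Hnrnpa2b1, whose gene total did not pass. It is named because of its values, since its mean share was under the 5% used to choose transcripts. ENSMUST00000204158, 1542 bases long, had 0.35, 0.18, 0, 0, 0 and 0 expected counts in DM1 to DM3 and DF1 to DF3. Controls had 346, 662 and 515 counts in males and 258, 82.1 and 236 in females. Its share of the gene was at most 0.0059% in Dnmt3l and 1.13% to 9.11% in controls (limma adjusted p = 8.86e-05, diffSpliceDGE adjusted p = 4.68e-17). With 1 library left out the limma adjusted p was 0.000151 to 0.000984, and 0.00878 without the 3 liver-bearing controls. DF1, which lay at or near the controls for the genes that were lower, was at 0 here. Of the 117640 transcripts left in the table after the 1774 with no gene ID were set aside, 6 were under 1 count in all 6 Dnmt3l libraries and at 10 or more in all 6 controls, and 1 showed the reverse. An exact 0 can arise from how reads are divided among overlapping transcripts, which was not tested.

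Hnrnpk was called for its level and, with limma on the full set of libraries, for its usage. ENSMUST00000043269, 2676 bases, took 29.7%, 32.0%, 25.5%, 40.3%, 33.7% and 30.1% of the gene's counts in DM1 to DM3 and DF1 to DF3, against 51.9%, 48.3%, 45.1%, 42.5%, 49.98% and 54.4% in CM1 to CM3 and CF1 to CF3. The groups did not overlap, with DF1 nearest to the controls (31.9% ± 4.97 in Dnmt3l and 48.7% ± 4.39 in controls, SD, n = 6 each, limma adjusted p = 0.031; diffSpliceDGE adjusted p = 0.275). The short ENSMUST00000226015 of the same gene took 1.84% and 0.553% (limma adjusted p = 0.031).

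Hnrnpl and Hnrnpr had limma calls on major transcripts, on the full set of libraries, while their gene totals did not pass. For Hnrnpl, ENSMUST00000172529 (1898 bases) took 20.2% to 28.9% in Dnmt3l and 32.0% to 36.4% in controls, and ENSMUST00000173750 (2275 bases) took 29.9% to 40.1% and 25.4% to 29.0% (limma adjusted p 0.0333 and 0.0461). For Hnrnpr, a relative of Syncrip that binds RNA in neuronal processes, ENSMUST00000105850 (2683 bases) took 28.2%, 30.0%, 34.0%, 32.6%, 24.1% and 27.9% in DM1 to DM3 and DF1 to DF3, against 40.8%, 40.8%, 39.1%, 39.5%, 44.9% and 38.2% in CM1 to CM3 and CF1 to CF3. Its longest transcript, ENSMUST00000148843 (21452 bases), took 52.4% to 64.0% in Dnmt3l and 43.1% to 51.1% in controls (limma adjusted p 0.0365 and 0.0446). None of these 4 transcripts overlapped between the groups, DF1 included, and none passed with diffSpliceDGE (adjusted p 0.379, 0.61, 0.468 and 0.862).

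**Figure D4:**
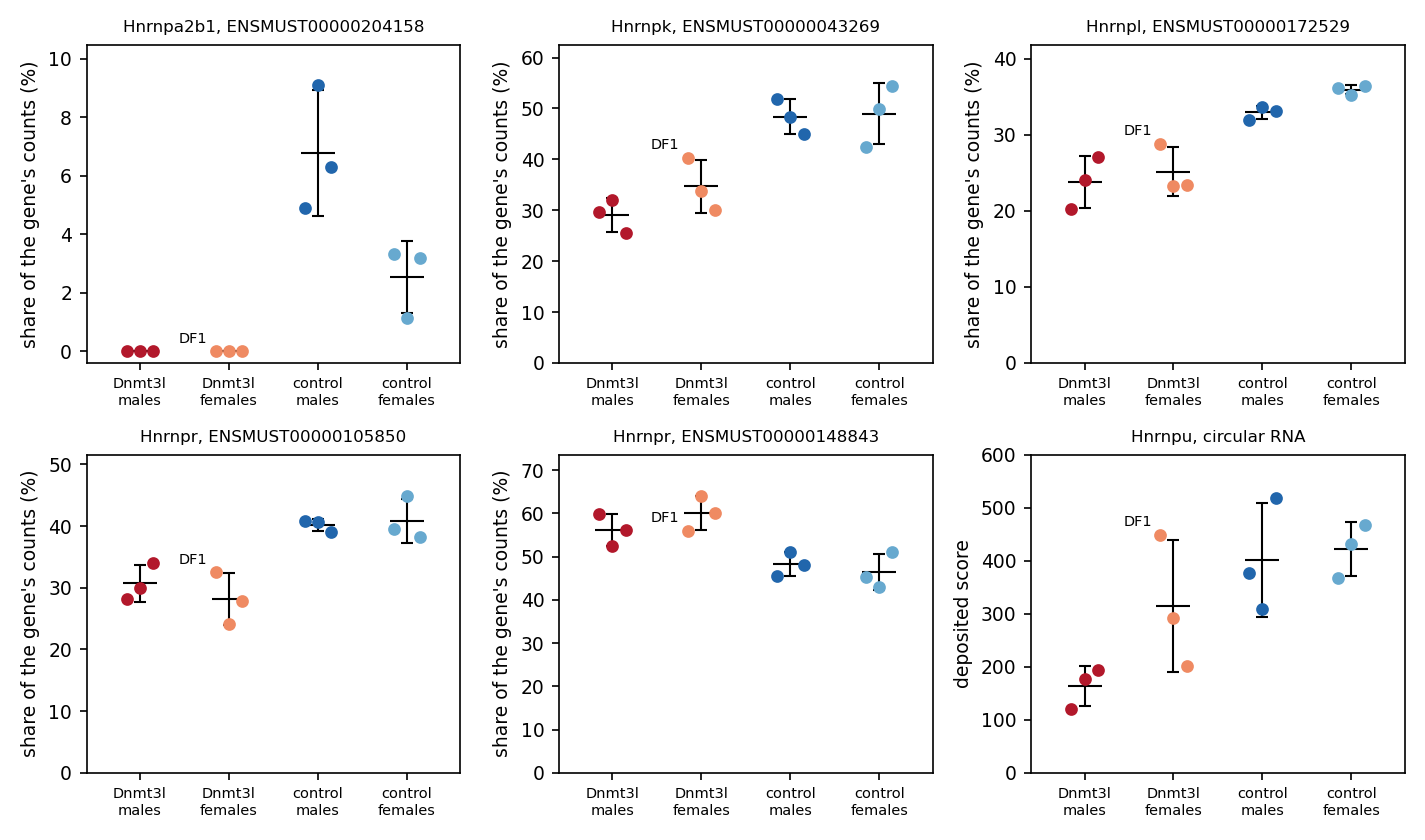
Share of the gene's expected counts taken by 5 transcripts, in percent, and the deposited score of the Hnrnpu circular RNA, in the 12 libraries (points, libraries; black bars, mean ± SD of 3). The Hnrnpa2b1 transcript is at or near 0 in all 6 Dnmt3l libraries, and the Hnrnpk, Hnrnpl and Hnrnpr shares do not overlap between genotypes.

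Srsf1, whose total did not pass, had less of its 5362-base ENSMUST00000139129, 45.0% ± 5.83 in Dnmt3l and 56.8% ± 2.30 in controls (SD, n = 6 each, limma adjusted p = 0.044), and DF1 at 54.2% lay within the control range of 53.9% to 60.1%. The 3 remaining calls were in Hnrnpul2, where ENSMUST00000237237 took 5.36% and 2.32% and ENSMUST00000096753 the remaining 94.6% and 97.7%, and in Hnrnph1, where ENSMUST00000077817 took 5.22% and 8.41%, in Dnmt3l and controls. Hnrnpul2 has only these 2 transcripts, so its 2 calls mirror each other and are 1 result. The 2 transcripts that only diffSpliceDGE called were ENSMUST00000184635 of Hnrnpll, at 0.618% to 11.9% in Dnmt3l and 12.1% to 22.1% in controls (diffSpliceDGE adjusted p = 0.00393, limma adjusted p = 0.079), and the rare ENSMUST00000224342 of Hnrnpk, at 0 in Dnmt3l and at most 0.459% in controls (diffSpliceDGE adjusted p = 0.0427). Shares did not overlap between genotypes for 20 tested member transcripts, and for 3.76% of all tested transcripts. The male-minus-female difference in usage passed for 0 member transcripts with limma (0.0381% of all transcripts) and for 1 with diffSpliceDGE, ENSMUST00000030438 of Srsf10 (diffSpliceDGE adjusted p = 0.00768, limma adjusted p = 0.917). The share-weighted transcript length was longer in Dnmt3l for 36.7% of 30 members and for 39.1% of the 11287 genes tested for both level and transcript usage.

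Of 10673 circular RNAs, 10 came from 6 of the member genes, and 1 was above 0 in all 12 libraries. This exonic circle of Hnrnpu, a nuclear scaffold protein gene, spans chr1:178323134-178325313 within the gene (chromosome 1, 178321108 to 178337797, GRCm38). Its deposited score was 121, 176, 193, 449, 292 and 202 in DM1 to DM3 and DF1 to DF3, against 376, 308, 519, 368, 431 and 467 in CM1 to CM3 and CF1 to CF3. The other 5 Dnmt3l libraries lay below every control and DF1 lay among them. The change of −0.88 ± 0.28 on the log2(score + 5) scale did not pass (limma adjusted p = 0.246, with 0.251% of 1989 circular RNAs called), but passed without DF1 (−1.02, limma adjusted p = 0.0116; 0.0116 to 0.659 over all alternatives). The median over the tested circular RNAs was −0.36. Relative to each library's summed circular RNA score the circle made up 0.869 to 2.40 per mille in Dnmt3l and 1.81 to 3.02 per mille in controls. Linear Hnrnpu was at 0.09 ± 0.05 (SE, edgeR adjusted p = 0.173), and the difference between circle and linear RNA was not tested.

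The remaining member circles were sparse. The circle of Hnrnpll, the Hnrnpl relative known from lymphocytes, was above 0 in 3 Dnmt3l and 5 control libraries, with scores up to 24 and up to 75 (limma adjusted p = 0.639). The long non-coding table held 1 transcript assigned to a member, TCONS_00352679 of Srsf11, with 5 to 14 counts in Dnmt3l and 0 to 19 in controls. It is listed with the coordinates of the Srsf11 gene, and no source used here says whether the counting used strand, so its reads cannot be told apart from those of Srsf11.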

How the data were processed

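Longer RNA of 12 samples was sequenced after ribosomal RNA depletion, with strand marked by dUTP per the labels' protocols. The mRNA table deposited by the authors gives an expected count and an FPKM for every transcript, with its length, per the file headers. The deposited circular RNA table holds a whole-number score, and no source used here says how it was made. The submitters' processing notes name HISAT2 2.0.1, HTSeq 0.6.1, cutadapt 1.9.1, DESeq2 and GRCm38, with no role or order. The microRNA table was not used, and 0 columns of per-sample values were left out.

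Expected counts were summed per gene and rounded. Transcripts with no gene ID (0.533% to 0.601% of counts) stayed out. Genes at 0.5 FPKM or more in at least 3 of 12 libraries (15786) were tested with edgeR 4.0.16 (TMM, quasi-likelihood), with 4 group means and 8 residual degrees of freedom, in R 4.3.3. P-values were Benjamini-Hochberg adjusted over all features of a contrast and called below 0.05. CPM are TMM-scaled. Transcripts with 10 or more counts in at least 3 libraries (49844) were tested for usage with limma 3.58.1 (trend) on the log2 logit of the share, with 0.5 counts added. The design had named edgeR's diffSpliceDGE. On simulated data 271 of its 307 calls were false, against 3 of 38 with limma, and limma was then used, after the real calls of both had been seen. Limma recovered 0%, 0% and 33.3% of simulated usage changes of 1.5, 2 and 4 times among 49844 transcripts, so smaller shifts can be missed. The gene fit recovered 55.2%, 70.1% and 92.4% among 15786 genes for the effect averaged over sexes, with 10 of 155 calls false. Each simulation changed only 67, 67 and 66 features by these folds and held no library that stood apart like DF1. In the data 51.5% of genes were called, so the simulated rates of recovery and of false calls need not hold here. Circular RNAs above 0 in at least 6 libraries were tested with limma on log2(score + 5), a test added after the data were seen.

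All 31 members are accounted for. Full statistics are given for up to 6 rises and 6 falls past the threshold and the 4 members highest in FPKM, and transcripts are named at a mean share of 5% or more and a difference of 5 percentage points or more, with exceptions marked. The members, gene lists and tests were chosen with earlier results of these data known. Alternatives were DESeq2 1.42.0, upper-quartile scaling, no filter, limma on log2(FPKM + 0.1), library weights, the replicate number as a block, and omission of libraries. Omission of the liver-bearing controls left CM1, CM2 and CF3 as the only controls. Transcript classes were not analysed here.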

Additional observations from a re-analysis of the deposited data

Results flagged for a closer look

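For Srsf3 and Srsf6, all 3 Dnmt3l males lay below and all 3 Dnmt3l females above the mean of the controls of their sex, although neither gene passed in either sex. The share of all genes with this pattern was not counted, so the pattern is not shown to be particular to these members. Srsf6, an SR protein gene, had 65.0, 65.9 and 60.1 CPM in Dnmt3l males against 66.0, 71.1 and 68.1 CPM in control males, and 72.0, 91.5 and 77.4 CPM in Dnmt3l females against 63.5, 58.2 and 69.8 CPM in control females. The log2 change was −0.10 in males and 0.33 in females (edgeR adjusted p 0.435 and 0.0576). The male change minus the female change was −0.43 ± 0.15 (SE) on the log2 scale and did not pass (edgeR adjusted p = 0.68, with 0.147 to 0.803 over DESeq2, upper-quartile scaling, no filter, limma on log2 FPKM, library weights and the replicate block). Srsf3, which adapts mRNA for export, had 49.6, 53.3 and 56.7 CPM in Dnmt3l males against 54.9, 60.0 and 58.0 CPM in control males, and 60.4, 70.2 and 58.8 CPM in Dnmt3l females against 55.1, 57.4 and 60.7 CPM in control females. Its log2 change was −0.11 in males and 0.13 in females (edgeR adjusted p 0.341 and 0.351). Its difference of −0.24 ± 0.13 (SE) did not pass either (edgeR adjusted p = 0.684).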

How the results depend on the processing

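The effect averaged over sexes gave 15 called members (3 higher, 12 lower). The higher count was 5 (11 lower) with upper-quartile scaling, 1 (11 lower) with limma on log2 FPKM and 6 (13 lower) with library weights. In that order, 4563, 2329 and 4940 of all 15786 genes were higher and 3735, 4282 and 4932 lower. The main fit had 3976 higher and 4160 lower. Counts are not given without the 3 controls that held liver transcripts, because CF3 was then the only control female. Of the 15 genes, 9 kept direction and call in all 19 alternatives. Females gave 8 calls with DESeq2, beside 3173 of all 15786 genes. For usage, diffSpliceDGE called 3 transcripts (beside 644 of all 49844), a trend on the mean count 17 (beside 2982) and the replicate block 1 (beside 24). For the male-minus-female difference diffSpliceDGE called 1 (beside 282). With 1 library left out the ranges were 13 to 17 called, 2 to 4 higher, 11 to 13 lower, 10 to 14 in males, 0 to 15 in females, 1 to 34 for usage, and 0 to 0 for both sex differences. Signs turned only for genes that did not pass: Hnrnpa2b1 (−0.018 on log2 FPKM), Hnrnph3 (−0.035 without the liver-bearing controls), Hnrnpll (0.025 with upper-quartile scaling), Hnrnpul1 (−0.069 on log2 FPKM, −0.011 with library weights), Srsf1 (0.029 with upper-quartile scaling, 0.13 on log2 FPKM), Srsf2 (0.025 with upper-quartile scaling, 0.081 without the liver-bearing controls), Srsf3 (−0.0072 without the filter, −0.049 without the liver-bearing controls) and Srsf4 (0.013 with upper-quartile scaling). With 1 library left out, the ranges of those that turned were −0.022 to 0.036 for Hnrnpul1, −0.059 to 0.026 for Srsf1, −0.093 to 0.0099 for Srsf2 and −0.035 to 0.031 for Srsf3. The causes were not tested. The replicate block gave 15 calls averaged over sexes, 13 in males and 3 in females. In deviations from their group means, same-numbered libraries correlated at −0.282 to 0.115 over 18 pairs, 1 above 0.1. Differently numbered libraries correlated at −0.196 to 0.214 over 36 pairs, 5 above 0.1. With 3 libraries per group, these correlations cannot decide whether equal numbers mark related samples, and the labels do not say. The median over all genes was 0.02 with TMM, 0.06 with upper-quartile scaling and −0.06 on log2 FPKM.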
